A study of Mus musculus with 4 samples.

Results

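The interferon-induced gene families and the interferon regulatory factors (IRFs) were followed through 4 mouse lymphomas. The members are the genes whose symbols match the named families (IFIT and IFITM, numbered IFI genes, GBP, OAS, IRF, Irgm, Mx) or a short list of single genes (Iigp1, Igtp, Isg15, Isg20, Rsad2, Usp18, Rtp4, Ddx58, Dhx58 and the chains of the interferon receptors). Irf4 and Irf8 were left out by the rule. It gave 78 genes of the 24943 in the count table. Of these, 66 reached 1 CPM (counts per 1000000 counted reads) in at least 1 library and were set against all 13543 genes that did so. A further 6 had a few counts under that level, and 6 (Ifitm5, Ifitm7, Oas1d, Oas1f, Oas1h and Ifi44l) had 0 counts in every library.

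The series concerns a TP63 fusion in mouse lymphomagenesis. Each library is poly(A) RNA of cells from a spleen that was enlarged and bore tumour, after lysis of red cells, and no sort is described. All 4 samples are labelled transgenic, with no strain, age, promoter or transgene given, and no untreated or control group is labelled. They form 1 group and are called lymphoma 1 (GW19), 2 (GW95), 3 (GW255) and 4 (GW328). Comparisons are therefore between single libraries, with no p-value. The labels do not state whether these are different mice, so part of the spread among libraries may be technical.

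Interferons signal through paired receptor chains to JAK kinases and STAT proteins. Type I interferons act mainly through a complex that contains IRF9 and binds the interferon-stimulated response element (ISRE), whereas interferon gamma acts mainly at gamma-activated sites (GAS). Among the induced genes, IFIT, OAS and Mx proteins act on viral RNA and viral replication, and the guanylate-binding proteins and immunity-related GTPases attack vacuoles that hold intracellular microbes. In spleen the IRFs also direct the development of lymphoid and myeloid cells.

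The promoters of the members carry these elements often. RefSeq promoters (GRCm38.p6, from 250 bases before to 50 after the start) were matched by symbol for 57 of the 78 members. The ISRE core, read as GAAA, any 2 bases and GAAA, was found on either strand in 30 of them (52.6%), and in 3.99% of all 27025 genes with a promoter. The GAS letters TTCNNNGAA, searched on both strands, were in 15 of the 57 (26.3%) and in 9.55% of all genes. The ISRE core was in 5 of 5 matched GBP, 5 of 6 IFIT, 7 of 9 PYHIN, 4 of 8 OAS and 3 of 4 immunity-related GTPase genes, and in 0 of 4 receptor genes. A match describes letters in this window only, and matches of the 2 motifs may overlap. The stretches below, each 60 bases upstream of the start, are shown because they carry the elements of members described further on. Capitals mark matches to either motif.
Irf1 at chr11:53769899-53769958 (plus strand), with a GAS: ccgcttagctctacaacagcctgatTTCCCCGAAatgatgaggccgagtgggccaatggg
Irf2 at chr8:46739495-46739554 (plus strand), with both: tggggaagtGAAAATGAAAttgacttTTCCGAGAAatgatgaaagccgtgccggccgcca
Ifit1 at chr19:34640779-34640838 (plus strand), with 2 ISRE cores: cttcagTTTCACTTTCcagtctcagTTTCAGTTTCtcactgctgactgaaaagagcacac
Ifit3 at chr19:34583382-34583441 (plus strand), with an ISRE core: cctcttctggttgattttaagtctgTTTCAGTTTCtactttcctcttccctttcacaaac
Ifit3b at chr19:34607778-34607837 (plus strand), with an ISRE core: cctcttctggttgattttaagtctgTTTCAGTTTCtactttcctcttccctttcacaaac
Isg15 at chr4:156200850-156200909 (minus strand), with 3 overlapping ISRE cores: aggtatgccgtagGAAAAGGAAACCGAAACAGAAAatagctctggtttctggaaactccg
Gbp2 at chr3:142620579-142620638 (plus strand), with an ISRE core: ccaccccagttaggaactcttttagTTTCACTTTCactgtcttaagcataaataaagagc
Igtp at chr11:58199496-58199555 (plus strand), with both: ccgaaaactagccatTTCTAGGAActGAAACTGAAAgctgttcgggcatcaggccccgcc
The Ifit3 and Ifit3b stretches differ at 0 of 60 bases. The pair are near-identical copies, as are several OAS, GBP, IFITM and PYHIN genes, and how the counting shared reads among such copies is not given in the sources used here.

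Totals were between 7773546 and 9602413 counts per library. A count of 0 allows up to 3 counts, or 0.294 to 0.379 CPM after scaling by edgeR TMM factors. Lymphoma 2 may not be independent of lymphoma 1. Over the 55 genes at 20 CPM or more in lymphoma 1 and 20-fold or more above lymphomas 3 and 4, lymphoma 2 lay at 0.665 of lymphoma 1 (quartiles 0.646 to 0.700), and 0 of these genes are members. Longer transcripts tended to be lower in lymphoma 1. As a description over 12243 genes measured in the same libraries, exonic length had a Spearman rho of -0.289 with the ratio of lymphoma 1 to lymphoma 2, -0.160 with that to lymphoma 3 and -0.291 with that to lymphoma 4. The median exonic length was 3442.5 bases for the 66 members and 4268 for all genes tested.

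Interferon-induced genes were lowest in lymphoma 1 and mostly highest in lymphoma 4 or 2. Of the 66 members, 46 (69.7%) were lowest in lymphoma 1, against 35.6% of all genes tested. Its exact Poisson 95% interval lay wholly below those of the other 3 libraries for 32 (48.5%, against 16.4%). Lymphoma 3 was lowest for 17 (25.8%, against 21.3%), lymphoma 2 for 2 (3.03%, against 5.07%) and lymphoma 4 for 1 (1.52%, against 33.2%). Lymphoma 4 was highest for 36 members (54.5%, against 34.0% of all genes) and lymphoma 2 for 19 (28.8%, against 6.31%). With intervals wholly above the other 3, lymphoma 4 kept 30 (45.5%, against 22.2%) and lymphoma 2 kept 10 (15.2%, against 0.879%). Lymphoma 3 was highest for 9 (13.6%, against 30.3%) and lymphoma 1 for 2 (3.03%, against 29.4%). The median member was at 1.44, 3.73, 2.96 and 3.92 log2(CPM + 1) in lymphomas 1 to 4, whereas the median of all genes tested stayed between 4.23 and 4.59. Over all 78 members the medians were 0.86, 3.23, 2.24 and 3.45. Within 2000 to 5000 exonic bases, a range chosen after the data were seen, 24 of 32 members (75%) were lowest in lymphoma 1 against 29.9% of genes of that length.

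The members' levels differed widely between tumours in CPM, and fewer members passed the same rule in the authors' FPKM. The highest and lowest library were 8-fold or more apart in CPM + 1 for 26 of the 66 members (39.4%), against 16.3% of all genes tested. In FPKM + 1 it was 9 of 60 (15%), against 8.28% of the 11081 genes with an FPKM of 1 or more in a library. Most members had smaller values in FPKM than in CPM, so the added 1 narrows their folds more. The lower count in FPKM + 1 therefore does not show a smaller spread. Of the 26, 21 were lowest in lymphoma 1, 31.8% of the members against 8.22% of all genes. Lymphoma 4 was highest for 18 of the 26 and lymphoma 2 for 5. The count was 11 without lymphoma 1 and 12 without lymphoma 4, with 10.4% and 8.77% of all genes past the same rule. It was 22 without lymphoma 2 and 23 without lymphoma 3, with 16.2% and 10.8% of all genes past the rule. The members' median range was 2.55 on the log2 scale and that of all genes 1.57. The map of 65 members by library shows lymphoma 1 low in most rows and the GTPase families high in lymphoma 4.

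**Figure D1:**
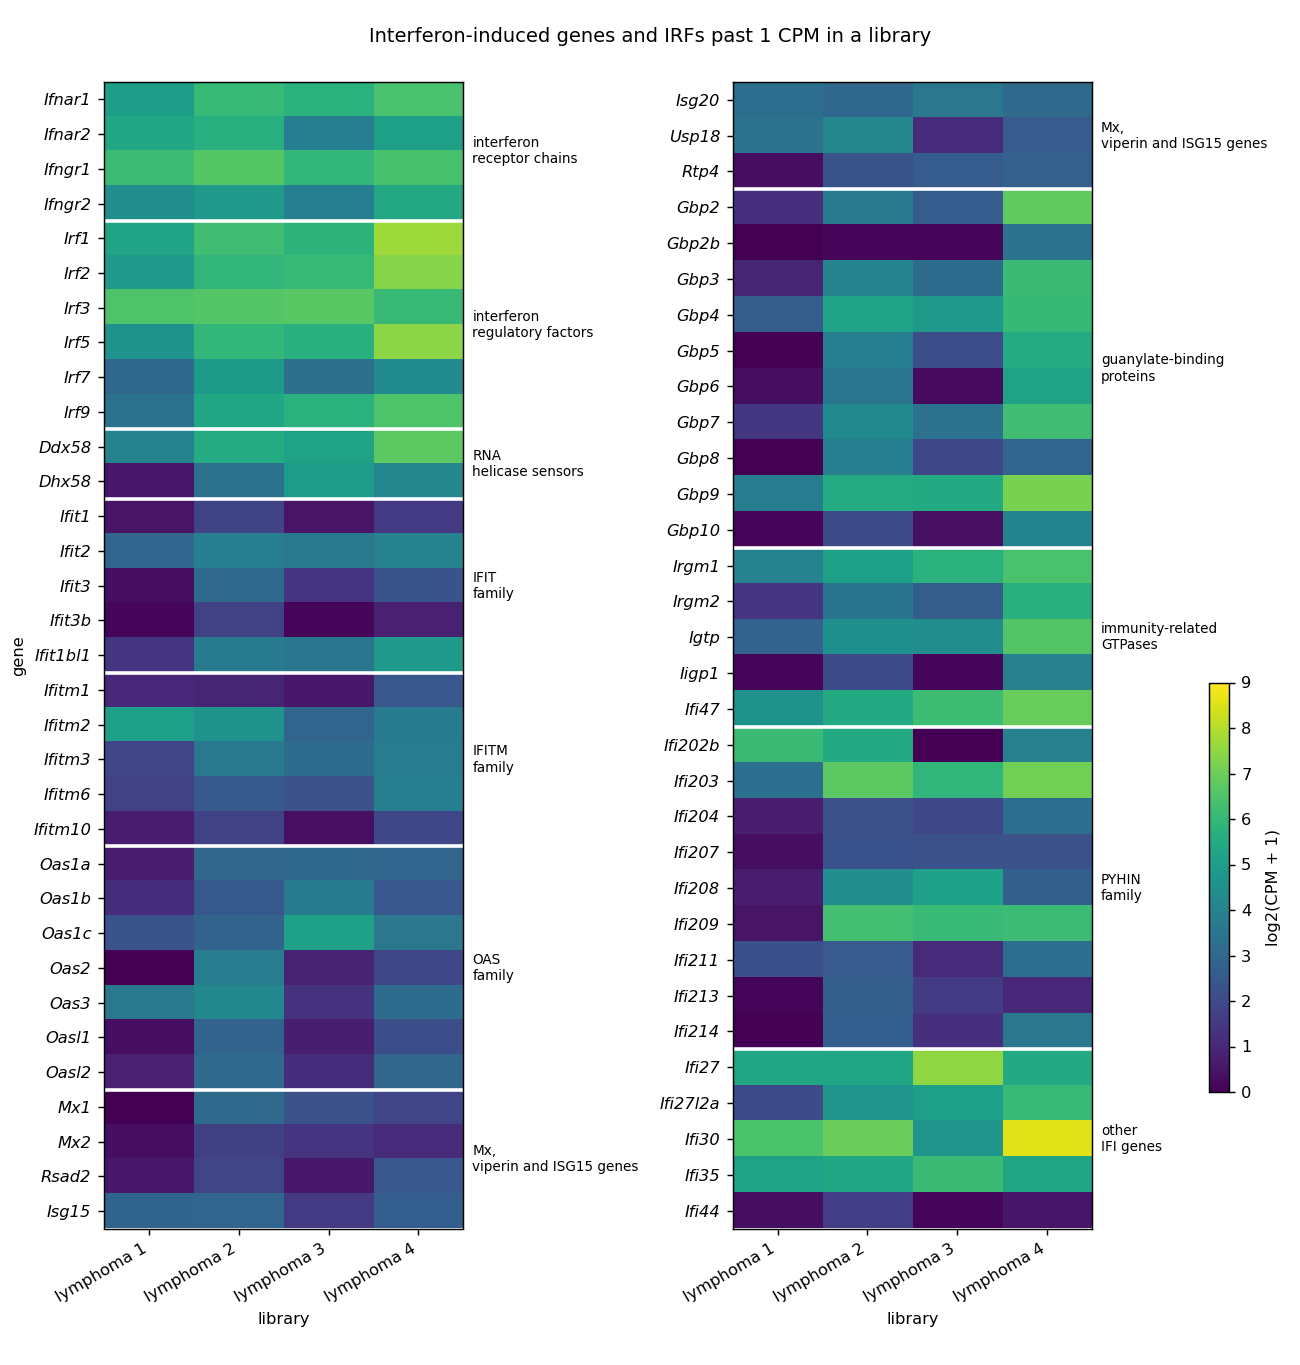
Level of 65 of the 66 members that reached 1 CPM, as log2(CPM + 1) by colour, with genes in rows by family and libraries in columns. Rows are to be read across, since counts are not per length. All 10 guanylate-binding protein genes shown were 8-fold or more apart between libraries.

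The receptor chains were present in every library and varied least among the families. Ifnar1 and Ifnar2, the chains of the type I receptor, were at 31.6, 66.4, 52.2 and 85.3 CPM and at 41.1, 49.4, 13.3 and 32.4 CPM in lymphomas 1 to 4. Ifngr1 and Ifngr2, the chains of the interferon gamma receptor, were at 70.6, 98.8, 61.3 and 82.6 CPM and at 20.8, 28.4, 13.6 and 42 CPM. None of the 4 was 8-fold apart. Lymphoma 3 was lowest for 3 of them (21.3% of all genes), and Ifnar1 was lowest in lymphoma 1. Per length, by the authors' FPKM, Ifngr1 (22.1 ± 4.76, SD, n = 4) lay above Ifnar1 (4.02 ± 1.52). The other chains had the opposite order of means, with Ifngr2 (7.42 ± 3.67) below Ifnar2 (13.9 ± 5.77).

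Most IRFs were highest in lymphoma 4 (5 of 7, against 34.0% of all genes), and Irf3 and Irf7 were the exceptions. Irf1, which is itself induced by interferon gamma and activates class I and GBP genes, was at 37.3, 75.5, 55.1 and 203 CPM in lymphomas 1 to 4. Irf2, its relative with a repressive role at the same sites, was at 28.0, 59.4, 66.2 and 165 CPM. Irf5, which acts below Toll-like receptors in B cells and myeloid cells, was at 23.9, 61.9, 50.8 and 174 CPM. In all 3 genes lymphoma 4 lay above the rest and lymphoma 1 below, with counting intervals that did not overlap. Irf9, the DNA-binding subunit of the complex at the ISRE, had the same ends at 9.35, 40.0, 53.2 and 91.1 CPM and was the only IRF to pass the 8-fold rule.

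Irf7, the amplifier of type I interferon production, had another order. It was at 7.08, 28.9, 9.03 and 19.2 CPM, highest in lymphoma 2 (exact Poisson 95% interval 25.5 to 32.6) and next in lymphoma 4 (16.5 to 22.3). Irf3, the constitutive factor that nucleic acid sensors activate by phosphorylation, was at 90.1, 96.6, 102 and 67.0 CPM and was the only member lowest in lymphoma 4. Per length the order of IRF means by FPKM was Irf3 (25.8 ± 5.45, SD, n = 4), Irf1 (24.6 ± 20.7), Irf2 (18.2 ± 14.0), Irf5 (16.5 ± 18.6), Irf9 (11.2 ± 8.32) and Irf7 (4.94 ± 2.80), and neighbours differed by less than their spread.

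**Figure D2:**
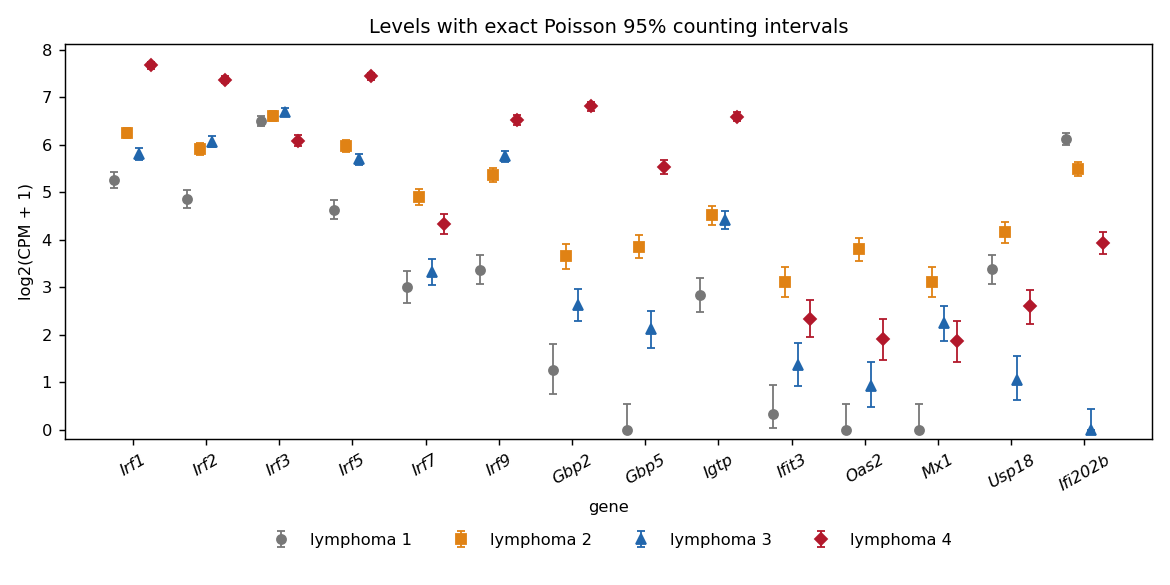
Levels of 14 members in each library as log2(CPM + 1), with bars for the exact Poisson 95% interval, which covers counting error only. Lymphoma 4 is highest for Irf1, Irf2, Irf5, Irf9, Gbp2, Gbp5 and Igtp, lymphoma 2 for Irf7, Ifit3, Oas2, Mx1 and Usp18, and Ifi202b has 0 counts in lymphoma 3.

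The helicase sensors of viral RNA were lowest in lymphoma 1. Ddx58, which encodes RIG-I, was at 15.3, 45.8, 35.6 and 106 CPM. Dhx58, which encodes the regulatory helicase LGP2, was at 0.505, 9.15, 30 and 17.2 CPM and was highest in lymphoma 3. It passed the 8-fold rule, with 4 counts in lymphoma 1.

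Guanylate-binding proteins had the widest spread of the families. All 10 that passed the filter were 8-fold or more apart, and 9 of them were highest in lymphoma 4 with counting intervals above those of the other 3 libraries, against 22.2% of all genes tested. Without lymphoma 4, 4 of 9 were 8-fold apart (Gbp3, Gbp5, Gbp6 and Gbp8), and without lymphoma 1 it was 6 of 10. In FPKM + 1, where the added 1 narrows the folds more, it was 3 of 10 (Gbp2, Gbp3 and Gbp5). Gbp2 was at 1.39, 11.6, 5.20 and 111 CPM. Gbp5, which also acts in inflammasome assembly, was at 0, 13.5, 3.34 and 45.4 CPM in the same order. Gbp9 was the most counted at 12.8, 45.8, 44.4 and 145 CPM. Between lymphoma 4 and lymphoma 2, Gbp2 differed 8.90-fold, Gbp3 4.38-fold, Gbp7 3.81-fold and Gbp9 3.11-fold in CPM + 1.

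Some GBP genes departed from that order or were near the floor in more than 1 library. Gbp8 was highest in lymphoma 2, with 0, 121, 29 and 61 counts, or 13.5 CPM there and 6.71 CPM in lymphoma 4. Gbp6 had 2, 95, 2 and 323 counts and Gbp10 had 1, 29, 3 and 144, so lymphoma 3 was as low as lymphoma 1 for both. Gbp2b had 0, 1, 1 and 83 counts and passed the filter through lymphoma 4 alone, so that its place in these counts follows from the filter. Gbp4, at 5.31, 35, 28 and 63.7 CPM, overlaps Gbp8 and Gbp9 on the same strand of the annotation, and their counts may not be cleanly separated. Gbp3 was at 0.884, 15.2, 8.14 and 69.8 CPM, Gbp7 at 1.77, 18.6, 9.62 and 73.8 CPM, and Gbp11 had at most 7 counts.

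The immunity-related GTPases followed the same order at their ends. All 5 were highest in lymphoma 4 with separate counting intervals (22.2% of all genes were), and 4 were lowest in lymphoma 1 (35.6% of all genes). Igtp, also called Irgm3, was at 6.19, 22.0, 20.3 and 95.5 CPM, Irgm2 at 1.64, 10, 5.30 and 51.7 CPM and Irgm1 at 14.9, 33.3, 52.1 and 83.6 CPM. Ifi47 was at 23.4, 43.9, 71.9 and 119 CPM. Iigp1, the effector GTPase that is loaded onto vacuoles, had 1, 29, 1 and 127 counts. Irgm2 and Igtp overlap in the annotation on the same strand, with the same limit on their counts. Lymphoma 3 lay above lymphoma 2 for Irgm1 and Ifi47 and below it for the other 3. The plot of family medians shows this gap between lymphoma 4 and the rest for both GTPase families and not for the IFIT, OAS and Mx families.

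**Figure D3:**
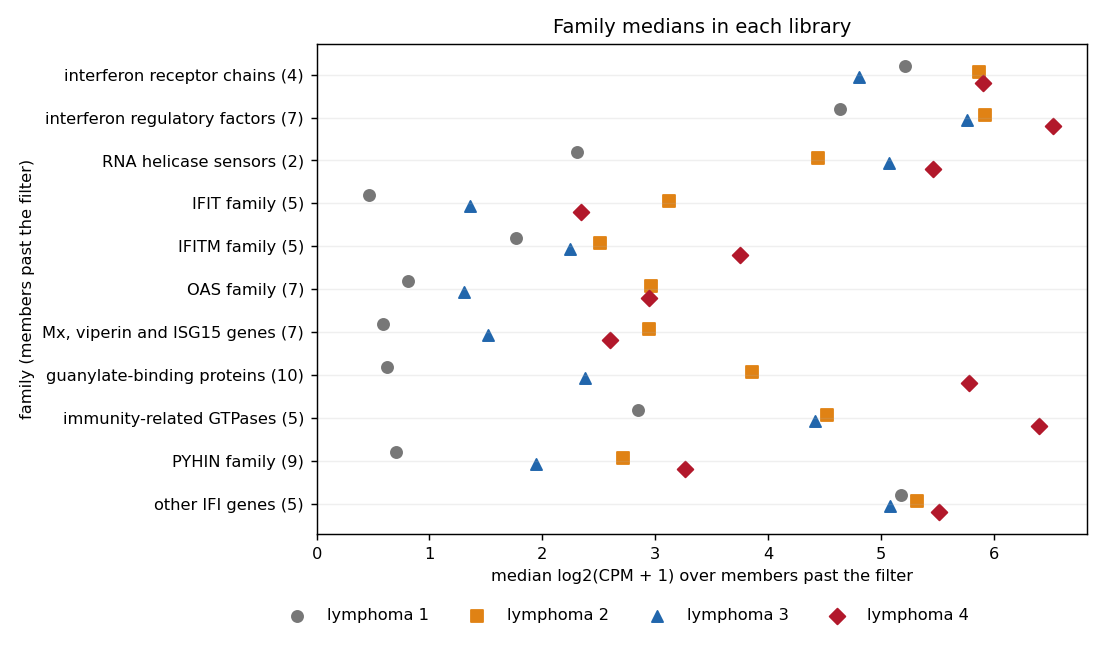
Median log2(CPM + 1) of the members past the filter in each of the 11 families, with 1 point per library. For the guanylate-binding proteins the points lie at 0.62, 3.86, 2.37 and 5.78 in lymphomas 1 to 4, and for the IFIT family at 0.46, 3.12, 1.36 and 2.34.

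The IFIT, OAS and Mx, viperin and ISG15 genes were highest most often in lymphoma 2. Of their 19 members past the filter, 11 were highest in lymphoma 2 (6.31% of all genes were), 4 in lymphoma 3 (30.3% of all genes) and 4 in lymphoma 4 (34.0% of all genes). Most of these ranks rest on overlapping counting intervals. Lymphoma 2 lay wholly above the other 3 libraries for 1 of 5 IFIT, 2 of 7 OAS and 2 of 7 Mx, viperin and ISG15 genes. Over all genes tested the share was 0.879%. Of the 19, 11 stayed under 10 CPM in every library. Ifit3, which stabilises the IFIT complex on viral RNA, was at 0.253, 7.70, 1.57 and 4.07 CPM. Ifit1, which binds RNA that lacks host cap methylation, had 3, 23, 4 and 17 counts, and the intervals of lymphomas 2 and 4 overlapped (1.63 to 3.85 and 1.09 to 2.99 CPM). Ifit3b had 1, 21, 1 and 7 counts. Ifit2 was at 6.57, 13.5, 11.1 and 15.1 CPM. Like Ifit2, Ifit1bl1 was highest in lymphoma 4, at 1.64, 11.7, 10.7 and 28.5 CPM, and it was the only IFIT gene past the 8-fold rule.

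The OAS genes split between lymphomas 2 and 3. Oas2 was at 0, 12.9, 0.883 and 2.75 CPM, and its level in lymphoma 2 was at least 34.1-fold above lymphoma 1 when 0 counts are set to the one-sided limit of 3. Oas3 was at 11.1, 17.5, 1.47 and 8.14 CPM, and Oasl1 and Oasl2 peaked in lymphoma 2 with 6.36 and 7.70 CPM, beside 3.52 and 6.93 CPM in lymphoma 4. The Oas1 genes were instead highest in lymphoma 3, with Oas1c at 3.92, 6.25, 34.8 and 10.8 CPM and Oas1b at 1.26, 4.57, 11.9 and 4.40 CPM. Oas1a was level at 6.80, 6.97 and 6.71 CPM in lymphomas 2 to 4 and at 0.632 CPM in lymphoma 1. Oas1e and Oas1g had at most 8 counts.

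Mx1, the GTPase that blocks viral replication, had 0, 69, 38 and 24 counts, or 7.70 CPM in lymphoma 2 and 2.64 CPM in lymphoma 4. Usp18, the ISG15 protease that also dampens type I receptor signalling, was at 9.48, 17, 1.08 and 5.06 CPM. Both passed the 8-fold rule and both were highest in lymphoma 2. Isg15 was at 6.44, 6.69, 1.86 and 5.39 CPM, so its level in lymphoma 1 was close to that in lymphomas 2 and 4, with overlapping intervals. Isg20, an exonuclease gene, was at 8.58 ± 1.65 CPM (SD, n = 4). Rsad2, which encodes viperin, Mx2 and Rtp4 reached at most 4.40, 2.23 and 5.72 CPM.

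Lymphoma 4 and lymphoma 2 thus differed by family. In CPM + 1, 25 of 66 members (37.9%) were 2-fold or more higher in lymphoma 4, against 18.1% of all genes, and 8 (12.1%) were 2-fold or more lower, against 19.8%. By intervals that did not overlap, lymphoma 4 was above lymphoma 2 for 32 (48.5%, against 32.8%) and below it for 15 (22.7%, against 35.0%). The 25 held 8 of 10 GBP genes, 5 of 5 immunity-related GTPases and 5 of 7 IRFs, but 1 of 5 IFIT, 0 of 7 OAS and 0 of 7 Mx, viperin and ISG15 genes. The 8 lower ones included Oas2 (3.72-fold), Usp18 (2.96-fold), Mx1 (2.39-fold) and Oas3 (2.03-fold). In the plot of lymphoma 4 against lymphoma 2, all GBP and immunity-related GTPase genes but Gbp8 lie above the line of equal levels. The antiviral genes lie on both sides of it, 3 of 5 IFIT, 6 of 7 OAS and 4 of 7 Mx, viperin and ISG15 genes being higher in lymphoma 2. With intervals that did not overlap, lymphoma 2 was above lymphoma 4 for 1 IFIT, 2 OAS and 2 Mx, viperin and ISG15 genes. Lymphoma 4 was above lymphoma 2 in that way for 1, 1 and 0. Exonic length moved with this contrast too (rho -0.275 with the ratio of lymphoma 2 to lymphoma 4), and its part in the family difference was not tested.

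**Figure D4:**
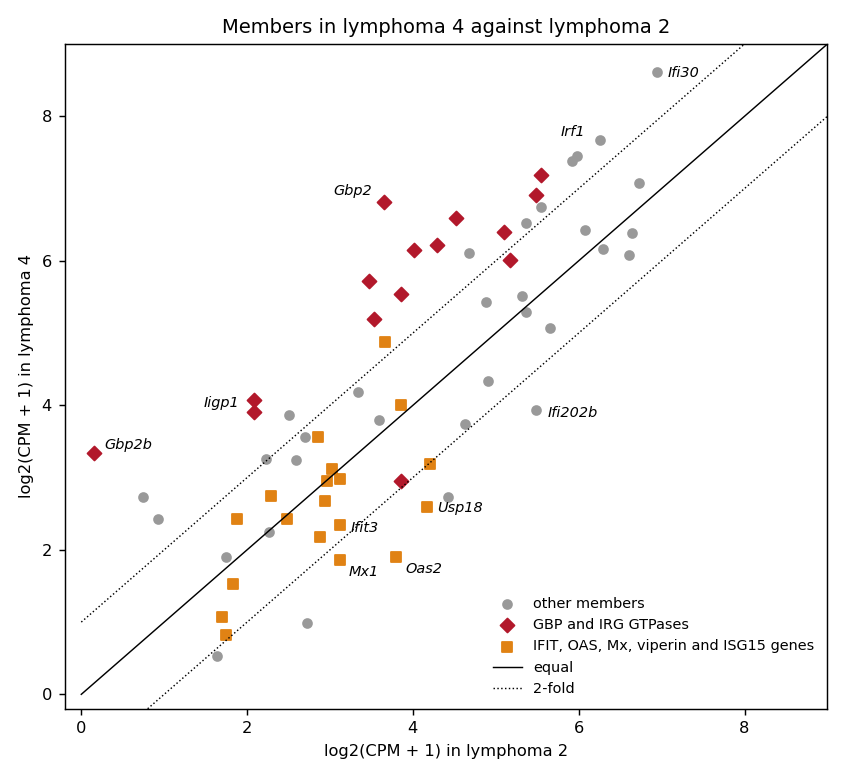
Each point is 1 of the 66 members, with log2(CPM + 1) in lymphoma 2 on the x axis and in lymphoma 4 on the y axis. The solid line marks equal levels and the dotted lines 2-fold differences, and 13 of the 15 GBP and immunity-related GTPase genes lie on or above the upper dotted line.

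The PYHIN genes, whose products bind DNA and form a cluster on chromosome 1, did not move together. Ifi209 was at 0.379 CPM in lymphoma 1, on 3 counts, and at 77.6, 66.5 and 70.7 CPM in lymphomas 2 to 4. Ifi203 was at 8.84, 105, 59.6 and 134 CPM. Ifi202b ran the other way, with 68.6, 43.9 and 14.3 CPM in lymphomas 1, 2 and 4 and 0 counts in lymphoma 3. With the same limit of 3 counts for lymphoma 3, lymphoma 1 was at least 233-fold higher. This gene is known to differ in expression between inbred strains, and the labels name no strain. Its ratio of lymphoma 2 to lymphoma 1 was 0.640, beside the 0.665 given above for genes largely of lymphoma 1.

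Other PYHIN genes differed in order again. Ifi208 was at 0.632, 20.5, 34.2 and 5.61 CPM, highest in lymphoma 3. Ifi213 and Ifi214 had 1, 50, 20 and 9 counts and 0, 49, 14 and 98 counts. The promoters of Ifi208 and Ifi213 share a stretch of 60 bases around an ISRE core with 0 differences, and their highest libraries were lymphoma 3 and lymphoma 2. Ifi204, Ifi207 and Ifi211 reached at most 8.58, 3.79 and 8.47 CPM, and Ifi205 had at most 7 counts.

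The IFITM genes, which encode membrane proteins that block viral entry, and the remaining IFI genes were mixed. Ifitm2 was highest in lymphoma 1, at 32.5, 23.6, 6.57 and 12.4 CPM, and only Ifi202b shared that feature among the 66. Ifitm3 was at 2.65, 11, 8.14 and 12.9 CPM and Ifitm6 at 2.4, 4.68, 3.73 and 13.6 CPM. Ifitm1 and Ifitm10 reached at most 4.40 and 2.75 CPM. Ifi30, the lysosomal thiol reductase of antigen-presenting cells, had the highest mean FPKM of the members, which lymphoma 4 carried (62.4, 103, 22.9 and 328, with Ifi27 at 163 in lymphoma 3), and was at 87.3, 122, 24.9 and 390.4 CPM. Ifi27l2a, a small mitochondrial protein gene, was at 3.28, 24.6, 32.9 and 67.9 CPM. Ifi27 stood out in lymphoma 3, at 41.2, 38.9, 180.5 and 44.6 CPM, and Ifi35 was at 35.1, 40.1, 70.1 and 38.3 CPM. Ifi44 had at most 19 counts and Ifi27l2b at most 1.

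Genes around the family in the pathway were counted from lists written with earlier results of these data known. Of 20 interferon ligand genes, 17 had 0 counts in every library, Ifnb1 and the 13 type I genes of the Ifna and Ifnab names among them. Ifng had 0, 32, 0 and 62 counts, which is 3.57 CPM in lymphoma 2 and 6.82 CPM in lymphoma 4. All 8 genes of the JAK-STAT list were highest in lymphoma 4, against 34.0% of all genes (medians 5.31, 6.03, 5.94 and 6.81 log2(CPM + 1)). The 8 include the receptor chain genes Ifnlr1 and Il10rb. Ifnlr1 passed the filter through lymphoma 4 alone, so its highest library follows from the filter. Jak1 was at 164.5, 265, 160.1 and 459 CPM and Stat2, the widest, at 6.44, 38, 59.9 and 71.4 CPM. Of 17 sensor and adaptor genes, 14 were highest in lymphoma 4 and 6 passed the 8-fold rule, against 34.0% and 16.3% of all genes. Among them Unc93b1, the chaperone of endosomal Toll-like receptors, was at 16.8, 170.2, 140 and 629 CPM and Tlr9 at 0.632, 21.1, 8.34 and 155 CPM. Lymphoma 4 was highest for 4 of 11 feedback genes and lymphoma 3 for another 4, shares near those of all genes (34.0% and 30.3%), with Ptpn6 at 325, 401, 647 and 584 CPM and Samhd1 at 14.0, 141, 44.1 and 501 CPM. Of 43 other interferon-stimulated genes past the filter, 31 were highest in lymphoma 4, 27 lowest in lymphoma 1 and 21 past the 8-fold rule, against 34.0%, 35.6% and 16.3% of all genes. Among them were Ly6e at 2334, 1985, 896 and 2974 CPM and Nlrc5 at 0, 56.1, 94.7 and 214 CPM. Phf11d, Cxcl9 and Apol9b, also among them, passed the filter through lymphoma 4 alone.

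Markers of other spleen cells moved with these levels. In bulk RNA, fewer cells of a type and less RNA per cell cannot be told apart. For comparison, 34.0% of all genes tested were highest in lymphoma 4 and 35.6% lowest in lymphoma 1. Natural killer and cytotoxic markers summed to 3.66, 135, 37.4 and 219 CPM in lymphomas 1 to 4, 9 of 10 being lowest in lymphoma 1 and 7 highest in lymphoma 4, with Nkg7 at 1.01, 23.0, 0.981 and 46.6 CPM. Dendritic cell markers were all 8 highest in lymphoma 4 (sums 2.27, 27.4, 14.1 and 81.5 CPM), with Itgax at 1.14, 17.4, 5.0 and 42.5 CPM. Several were near the floor outside lymphoma 4. Xcr1 had 0, 6, 5 and 40 counts, Zbtb46 0, 14, 1 and 20, Cd209a 0, 3, 0 and 59, and Clec9a 2, 4, 5 and 31. Xcr1, Clec9a, Batf3, Cd209a and Clec10a passed the filter through lymphoma 4 alone, so their highest library follows from the filter. The same holds for Klk1 among the plasmacytoid and Fcgr1 among the macrophage markers below. Plasmacytoid dendritic cell markers were highest in lymphoma 4 for 7 of 8 (sums 74.2, 114, 102 and 452 CPM), with Tcf4, which B cells also express, at 1.01, 34.6, 57.4 and 272 CPM. Macrophage and monocyte markers were highest in lymphoma 4 for 9 of 14 (sums 214, 510.4, 208 and 801 CPM), with Lyz2 at 105, 254, 96.6 and 259.9 CPM and Cd163 at 60.5, 43.0, 1.08 and 0.55 CPM. Neutrophil markers were highest there for 9 of 11 (sums 26.9, 188, 100.3 and 665 CPM), S100a9 being at 6.44, 40.3, 25.5 and 186 CPM. Ltf, of the same list, was at 0.505, 33.9, 9.42 and 74.6 CPM. The members' median and the medians of these 5 lists ordered the libraries alike (lymphoma 1, 3, 2, 4 from low to high), and the part of these cells in the members' levels was not tested.

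The lymphoid markers had other orders. Of all genes tested, 35.6% were lowest and 29.4% highest in lymphoma 1, and 33.2% were lowest and 34.0% highest in lymphoma 4. All 10 B cell markers were lowest in lymphoma 1 and 6 were highest in lymphoma 4 (sums 67.7, 1485, 4440.3 and 6262 CPM), with Cd79a at 24, 248, 1314 and 1151 CPM and Cd22 at 2.4, 191, 852 and 604 CPM. T cell markers were highest in lymphoma 1 for 10 of 12 (sums 4573, 3526, 863 and 889 CPM), with Lck at 879, 665, 315 and 145 CPM and Cd3d at 653, 480.4, 0.981 and 55.1 CPM. Immediate early and heat shock genes, which respond to handling, were high in lymphomas 2 and 4 (medians 5.32, 8.34, 5.37 and 8.07 log2(CPM + 1)), with Fos at 87.8, 682, 87.3 and 505 CPM and Hspa1a at 2.53, 199, 1.28 and 251 CPM. For 14 of 15 proliferation genes lymphoma 4 had the lowest level (list medians 7.32, 6.86, 7.8 and 3.12), with Pcna at 809, 597, 577 and 138 CPM and Birc5 at 153, 97.9, 222 and 5.61 CPM. Stroma and endothelium markers were near the floor (medians 0.09, 0.74, 0.07 and 0.99), apart from Pecam1 at 46.7, 66.8, 124 and 146 CPM and Pdgfrb at 16.2, 11.6, 10.7 and 0.33 CPM. The part of these lists in the members' levels was not tested either.

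**Figure D5:**
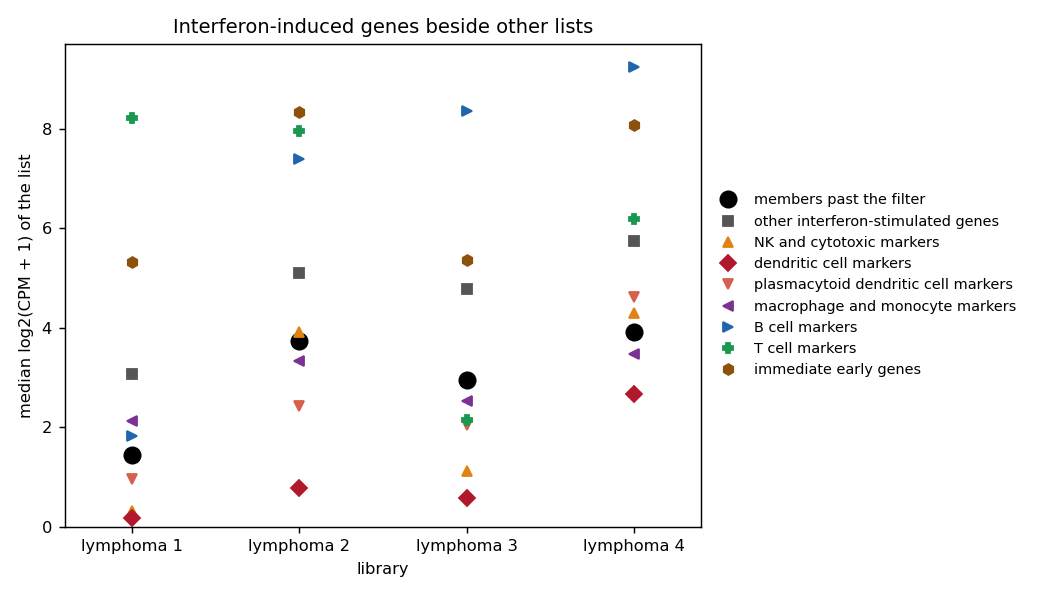
Median log2(CPM + 1) of the 66 members and of 8 other gene lists in each library. The members lie at 1.44, 3.73, 2.96 and 3.92 in lymphomas 1 to 4, and the natural killer, dendritic cell and macrophage markers share their order of libraries, whereas T cell markers are highest in lymphoma 1.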

How the data were processed

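Poly(A) RNA-seq of 4 spleen samples with lymphoma was analysed as 1 group. Gene counts were deposited, with a second table whose values, with no unit named, were read as FPKM. STAR 2.4.2a, Cufflinks 2.2.1 and mm10 are listed, without roles, per the submitters' processing notes. Their annotation and strandedness are not stated. The FPKM table has 5 further columns outside the labelled samples, left unused. In the count table, 26 rows had names turned into dates (0.191% to 0.201% of counts) and were left out.

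CPM used TMM effective library sizes (edgeR 4.0.16, R 4.3.3). The filter (1 CPM in at least 1 library) used CPM before TMM. Intervals are exact Poisson 95% and cover counting error only. Members past the filter are named by family. The rule gave values for members at 10 CPM or more in a library or 8-fold apart, and in other lists for the gene with the highest mean and that with the largest SD. Values of lower members and of Xcr1, Zbtb46, Cd209a and Clec9a were added after they were seen. Members and lists were chosen with earlier results of these data known. Positions and lengths are from GENCODE M21 (GRCm38), and promoters from RefSeq. Scripts were tested on simulated data. Alternatives were DESeq2 1.42.0 size factors, total counts, other filters, pseudocounts and folds, FPKM, a length range and leaving out each library. Values of 2 genes are not reported here.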

Additional observations from a re-analysis of the deposited data

Results flagged for a closer look

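For 3 members, 1 library lay far from the other 3 in log2(CPM + 1). The gap to the nearest library was 0.962 of the whole range for Ifi209 (lymphoma 1 low), 0.954 for Gbp2b (lymphoma 4 high) and 0.912 for Ifi27 (lymphoma 3 high), above Dixon's 95% critical value for 4 samples. Gbp2b passed the filter through lymphoma 4 alone, so that its high library follows from the filter. Chance alone gives such a gap in about 1 of 20 groups, and 49 were examined.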

How the results depend on the processing

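Under DESeq2 size factors, no filter or a pseudocount of 0.25 CPM, the counts and medians over the members stayed within 1.5 times or 1 SD of those reported, and with total counts alone the exceptions were the members lowest in lymphoma 2 (1) and lymphoma 4 (0). A mean of 5 CPM or more left 45 members. It gave 8 highest in lymphoma 2, 10 lowest in lymphoma 3, 4 that were 2-fold lower in lymphoma 4 than in lymphoma 2, and medians of 3.01 in lymphoma 1 and 5.51 in lymphoma 4. In the FPKM table, with FPKM + 1, 9 of 60 members were 8-fold apart, 8 of them among the 26, the median in lymphoma 2 was 2.2, with 0 lowest in lymphoma 2, 3 lowest in lymphoma 4 and 4 that were 2-fold lower in lymphoma 4 than in lymphoma 2. A 4-fold rule called 47 members between libraries, and 5 higher and 0 lower in lymphoma 4 than in lymphoma 2. Within 2000 to 5000 exonic bases, 13 were 8-fold apart, 24 lowest in lymphoma 1 and 16 highest in lymphoma 4, of 32. With each library left out in turn, 11 to 23 members were 8-fold apart. Then 2 to 6 were highest in lymphoma 1, 22 to 46 in lymphoma 2, 8 to 15 in lymphoma 3 and 36 to 47 in lymphoma 4. The numbers lowest were 45 to 56 in lymphoma 1, 2 to 10 in lymphoma 2, 16 to 49 in lymphoma 3 and 2 to 7 in lymphoma 4. The upper end for lymphoma 2 came without lymphoma 4, and that for lowest in lymphoma 3 without lymphoma 1. The cause of these shifts was not tested, apart from those due to fewer members or libraries. No paired analysis was possible because there is only 1 group. Depth limits members under about 3 counts.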

Other observations

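The counts and the FPKM table named the same highest library for 63 of the 66 members. Ifi205 had 16 counts in all yet FPKM of 0.222, 0.869, 0.453 and 2.21 in lymphomas 1 to 4, so its FPKM times length was 9.19 times its CPM. For Ifi214 the same quotient was 3.78.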
